A study of Homo sapiens with 9 samples.

Results

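The comparison is of PANC-1 cells, a line established from a human pancreatic tumour, after 2 days of combined nutrient and oxygen deprivation against the same cells at day 0. It takes the 6 libraries that the sample titles give to day 0 and day 2, 3 each, of the 9 in the series. The medium was DMEM with glucose lowered to 2.5 mM, amino acids to 20% of their usual amount and fetal calf serum to 0.5%, and no other treatment was labelled. The columns of all these libraries carry the prefix WT in the table, and no other genotype was given. Day 0 carried the same description of the medium as day 2, which leaves unstated how cells were held before deprivation began. All libraries came from 1 cell line, and no day 2 sample without deprivation was labelled, so that deprivation, time in culture and any batch by day cannot be told apart. Nothing in the labels said whether the 3 replicates of a day were separate cultures, so a p-value below covers the spread of these samples and that spread may be technical. In bulk RNA, fewer cells of a kind and less RNA per cell cannot be told apart.

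Expression was given as TPM, a share of the library corrected for transcript length, and each library summed to 1000000 TPM. Of 27800 symbols 13494 reached 1 TPM in at least 3 of the 6 libraries and were tested. Changes are differences of mean log2(TPM + 1), day 2 minus day 0, so that 1 is close to a 2-fold rise of an abundant transcript. A gene was called where limma gave a Benjamini-Hochberg adjusted p under 0.05 over all 13494 genes. Day 0 replicate 2 lay apart. Its log2 values correlated with day 0 replicates 1 and 3 at 0.866 and 0.871 across genes, whereas those 2 correlated at 0.976 and the day 2 libraries at 0.950 to 0.958. Of its TPM 24.2% was in ribosomal protein genes and 24.5% in small RNA symbols, where the other 5 libraries had 10.4% to 12.8% and 35.4% to 43.8%. Most of the small RNA share was 1 symbol, MIR6723, with 21.4% of TPM in day 0 replicate 2 and 24.4% to 32.6% in the other 5. What RNA its reads came from was not tested. It was the lowest of the 3 day 0 libraries for 71.4% of the tested genes and the highest for 22.3%. All 5 epithelial and ductal markers were tested, with summed levels of 3137 to 4400 TPM at day 0 and 1044 to 1250 TPM at day 2. No marker of acinar, islet, endothelial, blood or liver cells reached 1 TPM in any library. Of 6 fibroblast markers 2 were tested, with sums of 10.5 to 62.8 TPM at day 0 and 56.6 to 74.0 TPM at day 2.

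A cell that runs short of glucose, amino acids and oxygen is known to slow its growth on several levels. The kinase complex mTORC1, which promotes ribosome building and protein and lipid synthesis when nutrients are present, is restrained, and stress kinases reduce translation. Cells stop entering S phase, take up more of what is left outside, and digest their own components by autophagy. The families below follow these layers, first the machinery that fell and then the genes that rose.

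At day 2, 1924 genes were higher (14.3%) and 1199 lower (8.89%) than at day 0. In each of them all 3 day 2 libraries lay on the same side of all 3 day 0 libraries, so no called gene had overlapping days. Genes under 1 TPM in all 3 libraries of 1 day entered the test through the other day alone and had to differ, and 367 of the rises (19.1%) and 40 of the falls (3.34%) were of this kind. Those named below are given with their levels and log2 change and with no p. The family counts include them, among others 3 of the 10 calls in microRNA host genes, 3 of 15 in cell cycle inhibitors and p53 targets, 2 of 8 in KLF and SP factors, 3 of 11 in forkhead factors, 2 of 9 in nuclear receptors, 3 of 11 in insulin and PI3K genes, 3 of 12 in Kelch-like genes and cullins, 2 of 5 in potassium channels and 2 of 5 in chemokines and interleukins. Among all 13494 genes the 3 libraries lay apart upward in 4497 (33.3%) and downward in 2449 (18.1%). When day 0 replicate 2 was left out, 3594 genes were higher (26.9%) and 3547 lower (26.5%) of 13370 tested. Of the calls made with all 6 libraries, 1923 rises and 1159 falls were made again, and 40 of the falls were of genes no longer tested. The balance of the 2 directions depended on the scaling and on that library. Rises were 61.6% of all calls with all 6 libraries, 47.0% after median-ratio scaling, 48.4% after quantile normalization, 47.2% with array weights and 50.3% without day 0 replicate 2. The median change over all tested genes was 0.22, and it was -0.08, -0.02 and 0.01 after median-ratio scaling, after quantile normalization and without day 0 replicate 2. A family's median is best read against these values. Leaving out 1 day 2 library cut the calls to between 317 and 399 rises and between 256 and 434 falls. Among the called rises the median change was 1.31 and 362 exceeded 4-fold, and among the falls it was -1.27 with 149 beyond 4-fold.

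**Figure D1:**
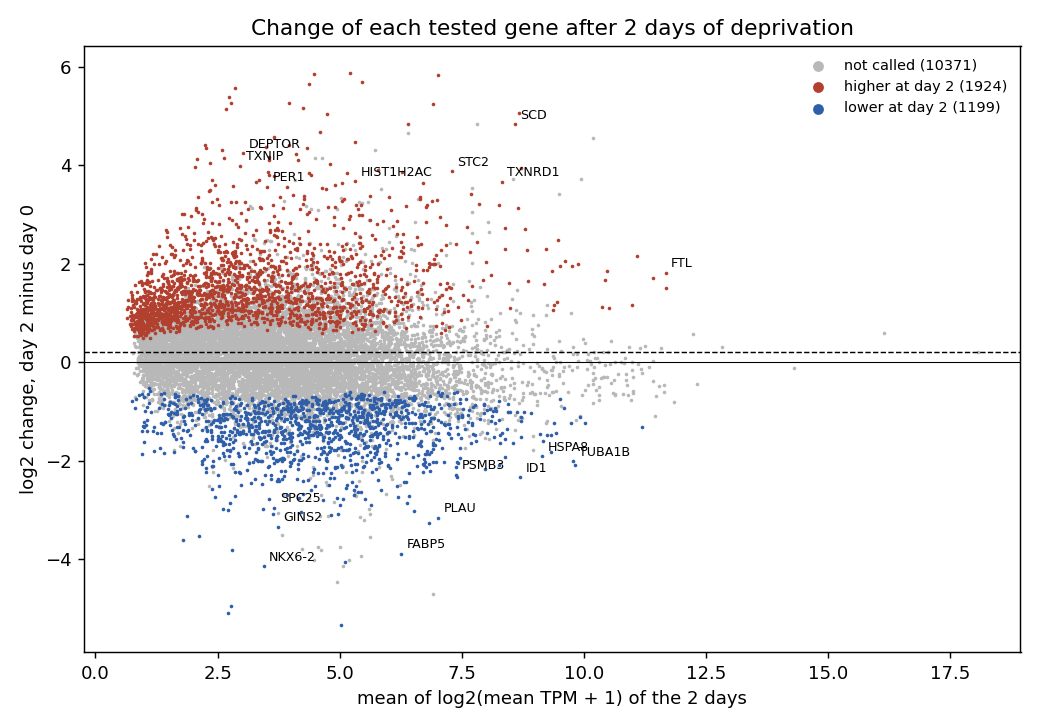
Each point is 1 of the 13494 tested genes, with the mean of its log2(mean TPM + 1) at day 0 and day 2 on the horizontal axis and its log2 change, day 2 minus day 0, on the vertical axis. The 1924 called rises (red) reach further from 0 than the 1199 called falls (blue), and the dashed line is the median change of all tested genes, 0.22.

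Of the 20 largest rises called with and without day 0 replicate 2, 11 are given here, picked after their values had been seen. HMOX1, which breaks down haem, changed by 5.07, the desaturase SCD by 4.83 and the metallothionein MT1F by 4.68. MT1A, a near copy of MT1F, was instead among the 20 largest falls (-3.01), and the values of these near copies are uncertain. Day 0 replicate 2 held 665 TPM of MT1A, against 123 and 120 in the other day 0 libraries, and without it the change was -2.19. RNVU1-7, a variant U1 RNA gene with near copies, was at 0, 0 and 0 TPM at day 0 and 80.8, 24.7 and 49.4 TPM at day 2. DEPTOR, an inhibitor that binds the mTOR kinase, was at 0.948, 0.846 and 0.798 TPM at day 0 and 36.9, 33.3 and 33.001 TPM at day 2. Its log2 change was 4.25 ± 0.19 (SE), and the 3 libraries of either day lay close together. BMF, a BCL2 family member that promotes apoptosis, was at 0.311, 0.224 and 0.782 TPM at day 0 and 16.0003, 34.8 and 25.7 TPM at day 2, a log2 change of 4.16 ± 0.33 (SE). PNRC1, a nuclear receptor coregulator, rose by 4.11 and PCK2, the mitochondrial enzyme that makes phosphoenolpyruvate, by 4.02. The secreted protease HTRA3 and the urothelial membrane protein UPK1A were under 1 TPM in every day 0 library and at 18.6 to 32.5 TPM in the day 2 libraries (log2 changes 4.31 and 4.05). FADS2, a fatty acid desaturase, rose by 3.90. The calls of HMOX1, SCD, MT1F, PNRC1, PCK2 and FADS2 held without each of the 6 libraries in turn. RNVU1-7, DEPTOR, BMF, HTRA3 and UPK1A could not be tested without a day 2 library.

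Among the largest falls, NKX6-2, a homeobox transcription factor, was at 38.1, 49.9 and 44.5 TPM at day 0 and 0.887, 1.51 and 2.499 TPM at day 2 (-4.14 ± 0.29 (SE, adjusted p = 0.00105)). PLAU, the urokinase protease, was at 545, 241 and 396 TPM at day 0 and 47.3, 34.1 and 42.8 TPM at day 2 (-3.16 ± 0.33 (SE, adjusted p = 0.00256)), with day 0 replicate 2 the lowest of day 0 but still far above day 2. The lipid carrier FABP5 fell by 3.89 on the log2 scale and G0S2, an inhibitor of triglyceride breakdown, by 2.97. Several others are known from dividing cells. MYBL2, a transcription factor of the cell cycle, was at 107, 58.02 and 109 TPM at day 0 and 9.27, 10.4 and 8.83 TPM at day 2 (-3.09 ± 0.29 (SE, adjusted p = 0.00208)). The kinases MELK (-3.09) and PKMYT1 (-2.79), the spindle protein HAUS7 (-3.04), SHCBP1 (-2.97) and UBE2T (-2.90), a ubiquitin enzyme of crosslink repair, fell with it. ID2, an inhibitor of basic helix-loop-helix factors, changed by -3.07 and the splicing-associated isomerase PPIH by -2.89. The calls of all 12 genes described held without each of the 6 libraries in turn.

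Most of the genes that copy DNA fell. Of the 24 genes of the MCM helicase and its loading, 16 were lower and none higher, with a median change of -1.61, and of the 28 polymerase, clamp and clamp loader genes 20 were lower and none higher (-1.52). The background of falls was 8.89%. Leaving out day 0 replicate 2, the falls numbered 19 and 26, with 1 rise among the polymerases, against a background of 26.5%. GINS2, a subunit of the replicative helicase, was at 33.4, 51.2 and 39.6 TPM at day 0 and 3.07, 2.64 and 3.8005 TPM at day 2 (-3.33 ± 0.24 (SE, adjusted p = 0.00114)). POLE2, a subunit of the leading-strand polymerase, was at 13.1, 13.7 and 12.7 TPM at day 0 and 1.19, 1.18 and 0.981 TPM at day 2 (-2.74 ± 0.18 (SE, adjusted p = 0.000986)), nearly equal within each day. PCNA, the sliding clamp, was at 166, 354 and 177 TPM at day 0 and 46.1, 50.03 and 41.8 TPM at day 2, high above the other libraries in day 0 replicate 2, with a change of -2.23 ± 0.32 (SE, adjusted p = 0.00609). The helicase subunits MCM4 (-2.50) and MCM3 (-2.15), the licensing factor CDC6 (-2.20) and geminin, GMNN (-2.39), an inhibitor of licensing, moved in the same direction. So did the flap endonuclease FEN1 (-2.75), the clamp loaders DSCC1 (-2.84) and RFC4 (-2.50), and the helicase RECQL4 (-2.75).

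Repair and nucleotide supply genes followed in the same direction, with smaller shares of members called. Among 35 genes of homologous recombination and the Fanconi pathway 17 fell and none rose (31 and 1 without day 0 replicate 2). Among 42 genes of mismatch and excision repair 11 fell and none rose (19 and 1). RAD54L, a DNA translocase of homologous recombination, was at 20.4, 13.6 and 18.8 TPM at day 0 and 1.89, 1.098 and 1.03 TPM at day 2 (-2.99 ± 0.26 (SE, adjusted p = 0.00163)). Nucleotide synthesis and salvage genes gave 18 falls and 2 rises of 41 (28 and 4). Thymidylate synthase TYMS was at 209, 172 and 182 TPM at day 0 and 29.2, 25.2 and 27.4 TPM at day 2 (-2.74 ± 0.17 (SE, adjusted p = 0.000927)), with both days tight. The nucleotide pool enzymes DCTPP1 (-2.24) and NME1 (-2.07) fell as well. The calls of the 4 genes named for repair and nucleotide supply, like those of the 11 replication genes with a value above, held without each library in turn.

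Many genes of chromosome separation fell alongside. Of 44 centromere and kinetochore genes 31 were lower and none higher, with a median change of -1.46 (38 lower and 1 higher without day 0 replicate 2). SPC25, which couples kinetochores to microtubules, was at 27.8, 46.1 and 29.5 TPM at day 0 and 4.35, 2.79 and 3.43 TPM at day 2 (-2.95 ± 0.28 (SE, adjusted p = 0.00208)). AURKB, the kinase that corrects attachments, was at 75.95, 107 and 80.5 TPM at day 0 and 15.6, 15.2 and 15.6 TPM at day 2 (-2.42 ± 0.20 (SE, adjusted p = 0.00143)), and the kinetochore proteins ZWINT (-2.63) and DSN1 (-2.40) fell too. Of 34 cyclins, cyclin-dependent kinases and anaphase-promoting complex genes 13 fell and 1 rose (23 and 1). CCNB1, the mitotic cyclin B1, was at 163, 174 and 180.2 TPM at day 0 and 30.4, 28.6 and 29.3 TPM at day 2 (-2.51 ± 0.16 (SE, adjusted p = 0.000927)). CDC20, an activator of the anaphase-promoting complex, was at 312, 137 and 319 TPM at day 0 and 45.9, 55.2 and 52.7 TPM at day 2 (-2.20 ± 0.36 (SE, adjusted p = 0.00906)), with day 0 replicate 2 below the other 2 and still above every day 2 library. Cyclins of earlier phases fell likewise, CCND3 by 2.06 and CCNE2 by 2.10, as did CCNA2 (-1.99) and CDC25A (-2.57), a phosphatase that activates cyclin-dependent kinases. FOXM1, the transcription factor of mitotic genes, changed by -2.59, and securin, PTTG1, by -3.26. Kinesins as a class were mixed, with 8 lower and 1 higher of 35 symbols (15 and 6), and cohesin and condensin genes gave 4 falls and 1 rise of 25 (15 and 4). Of the 12 called genes described, 9 kept their call without each of the 6 libraries in turn; CDC20, CCND3 and PTTG1 lost it without at least 1 day 2 library, with a highest adjusted p of 0.0595 to 0.0656. The log2 change without day 0 replicate 2 was -2.61 for PTTG1.

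Short motifs known from cell cycle promoters were searched in the windows of the falling families, and 3 windows are shown because they hold matches and their genes are described above. The windows run from 250 bases before to 50 after a gene's start, from RefSeq on GRCh38.p14, whereas the expression table named hg19. Of the tested symbols 73.1% had such a window, so shares over tested genes rest on 9858 of 13494. The cell cycle homology element (CHR, searched as TTTGAA on both strands) was in 15 of the 36 kinetochore windows found (41.7%), in none of the 21 MCM and licensing or 24 polymerase and clamp windows, in 15.4% of all 27305 windows and in 9.11% of those of tested genes. The window of AURKB held no CHR match. The CCAAT box, searched on both strands, was in 61.1% of the kinetochore windows and 66.7% of the MCM and licensing windows. It was in 35.7% of all windows and 36.6% of those of tested genes. Families below with more rises than falls held it too, in 18 of 27 cholesterol, 7 of 9 arrestin-domain and glucose-sensing and 9 of 18 clock windows. Its share therefore did not set these falling families apart from those. Among all called genes with a window it was in 422 of 960 falls and 487 of 1351 rises. The E2F core GCGGGAA on both strands was in 28.6% of the MCM and licensing and 33.3% of the polymerase and clamp windows, so that most lacked it, against 6.56% of all and 10.6% of those of tested genes. Kinetochore windows held it in 16.7%. None of the searched motifs contains another. A match is a description of the letters and not a bound site. In the windows of CDC20 (chr1:43358731-43359030, plus strand) and SPC25 (chr2:168890381-168890680, minus strand) the capitals mark CHR and CCAAT matches, and in that of GINS2 (chr16:85688905-85689204, minus strand) the E2F core. Left unmarked are an E2F core in the SPC25 window and a CCAAT box in the GINS2 window. Each window is printed 5′ to 3′ along the gene.
CDC20: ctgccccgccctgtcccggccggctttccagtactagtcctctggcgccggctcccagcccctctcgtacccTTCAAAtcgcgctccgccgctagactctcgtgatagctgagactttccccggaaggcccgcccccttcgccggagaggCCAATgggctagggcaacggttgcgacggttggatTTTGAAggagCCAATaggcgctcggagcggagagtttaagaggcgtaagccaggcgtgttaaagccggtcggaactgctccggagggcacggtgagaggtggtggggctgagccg
SPC25: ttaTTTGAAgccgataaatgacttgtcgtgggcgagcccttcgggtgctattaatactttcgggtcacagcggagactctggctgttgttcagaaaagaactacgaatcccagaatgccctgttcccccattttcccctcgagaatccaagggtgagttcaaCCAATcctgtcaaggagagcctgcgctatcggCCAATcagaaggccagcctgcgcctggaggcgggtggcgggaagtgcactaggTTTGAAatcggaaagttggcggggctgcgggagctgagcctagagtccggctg
GINS2: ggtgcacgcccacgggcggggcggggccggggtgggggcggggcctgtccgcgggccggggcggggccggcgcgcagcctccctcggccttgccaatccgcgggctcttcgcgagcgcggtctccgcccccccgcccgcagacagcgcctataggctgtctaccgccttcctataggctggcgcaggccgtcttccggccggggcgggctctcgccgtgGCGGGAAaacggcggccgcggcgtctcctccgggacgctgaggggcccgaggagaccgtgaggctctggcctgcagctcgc

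Many genes that hold the cell cycle or belong to the p53 response rose. Of 26 such genes 14 were higher and 1 lower, against a background of 14.3% higher (14 and 4 without day 0 replicate 2, where the background was 26.9%). The atypical cyclin CCNG2, known from quiescent cells, was at 0.344, 0.232 and 0.446 TPM at day 0 and 12.3, 14.01 and 12.05 TPM at day 2 (log2 change 3.36 ± 0.18 (SE)). SESN2, a stress-induced sestrin that restrains mTORC1, was at 6.12, 1.93 and 6.81 TPM at day 0 and 82.01, 68.7 and 75.4 TPM at day 2 (3.80 ± 0.40 (SE, adjusted p = 0.00263)), with day 0 replicate 2 the lowest. CDKN1C, the inhibitor p57, was at 0.954, 0.827 and 1.66 TPM at day 0 and 11.3, 13.7 and 9.32 TPM at day 2 (2.54 ± 0.25 (SE, adjusted p = 0.00225)), and CDKN1B, the inhibitor p27, at 12.5, 7.89 and 13.4 TPM at day 0 and 31.6, 35.99 and 34.4 TPM at day 2 (1.54 ± 0.25 (SE, adjusted p = 0.00857)). The apoptosis promoter BBC3 rose by 3.03, BTG1, an antiproliferative factor, by 2.41, and GADD45B by 2.28. The single fall was of CDKN2C, the inhibitor p18, at -0.97. Of the 7 called genes described that every such fit tested, 5 kept their call without each of the 6 libraries in turn; CDKN1B and CDKN2C lost it without at least 1 day 2 library, with a highest adjusted p of 0.0631 to 0.127. The call of CDKN2C was also lost without day 0 replicate 1 or 3. CCNG2 could not be tested without a day 2 library.

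Histone genes moved in both directions. The table held 87 histone genes, of which 46 were tested, 20 rose and 5 fell (25 and 4 without day 0 replicate 2). Replication-coupled histone messages normally lack a poly(A) tail, and how these libraries selected RNA was not given in the sources used here. HIST1H2AC was at 15.4, 3.26 and 14.7 TPM at day 0 and 123, 129 and 142 TPM at day 2 (3.68 ± 0.53 (SE, adjusted p = 0.00617)), with day 0 replicate 2 at the bottom of day 0. The linker histone H1F0, typical of cells that have left the cycle, was at 101, 67.5 and 119 TPM at day 0 and 466, 627 and 457 TPM at day 2 (2.44 ± 0.27 (SE, adjusted p = 0.00305)). HIST2H2BE (3.59) and HIST1H4H (3.40) rose too, and because clustered histone genes are near copies of each other their values are uncertain. The variants H2AFX, which marks DNA breaks, and H2AFZ moved the other way. H2AFX was at 302, 246 and 302 TPM at day 0 and 65.1, 71.1 and 68.7 TPM at day 2 (-2.03 ± 0.17 (SE, adjusted p = 0.00155)) and H2AFZ changed by -1.47. Among 15 histone lysine demethylases 7 rose and 1 fell (11 and 2). KDM3A, which removes methyl groups from lysine 9 of histone H3, was at 11.1, 3.77 and 11.5 TPM at day 0 and 106, 117 and 111 TPM at day 2 (3.64 ± 0.40 (SE, adjusted p = 0.00294)), KDM4B changed by 2.82 and KDM6B by 3.15. Methyltransferases gave 2 rises and 3 falls of 29 (7 and 10), among the falls SUV39H1 (-1.99). Of the 10 called genes described, 9 kept their call without each of the 6 libraries in turn; KDM6B lost it without at least 1 day 2 library, with a highest adjusted p of 0.0609. The log2 change without day 0 replicate 2 was 3.04 for HIST1H2AC and 2.52 for KDM6B.

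**Figure D2:**
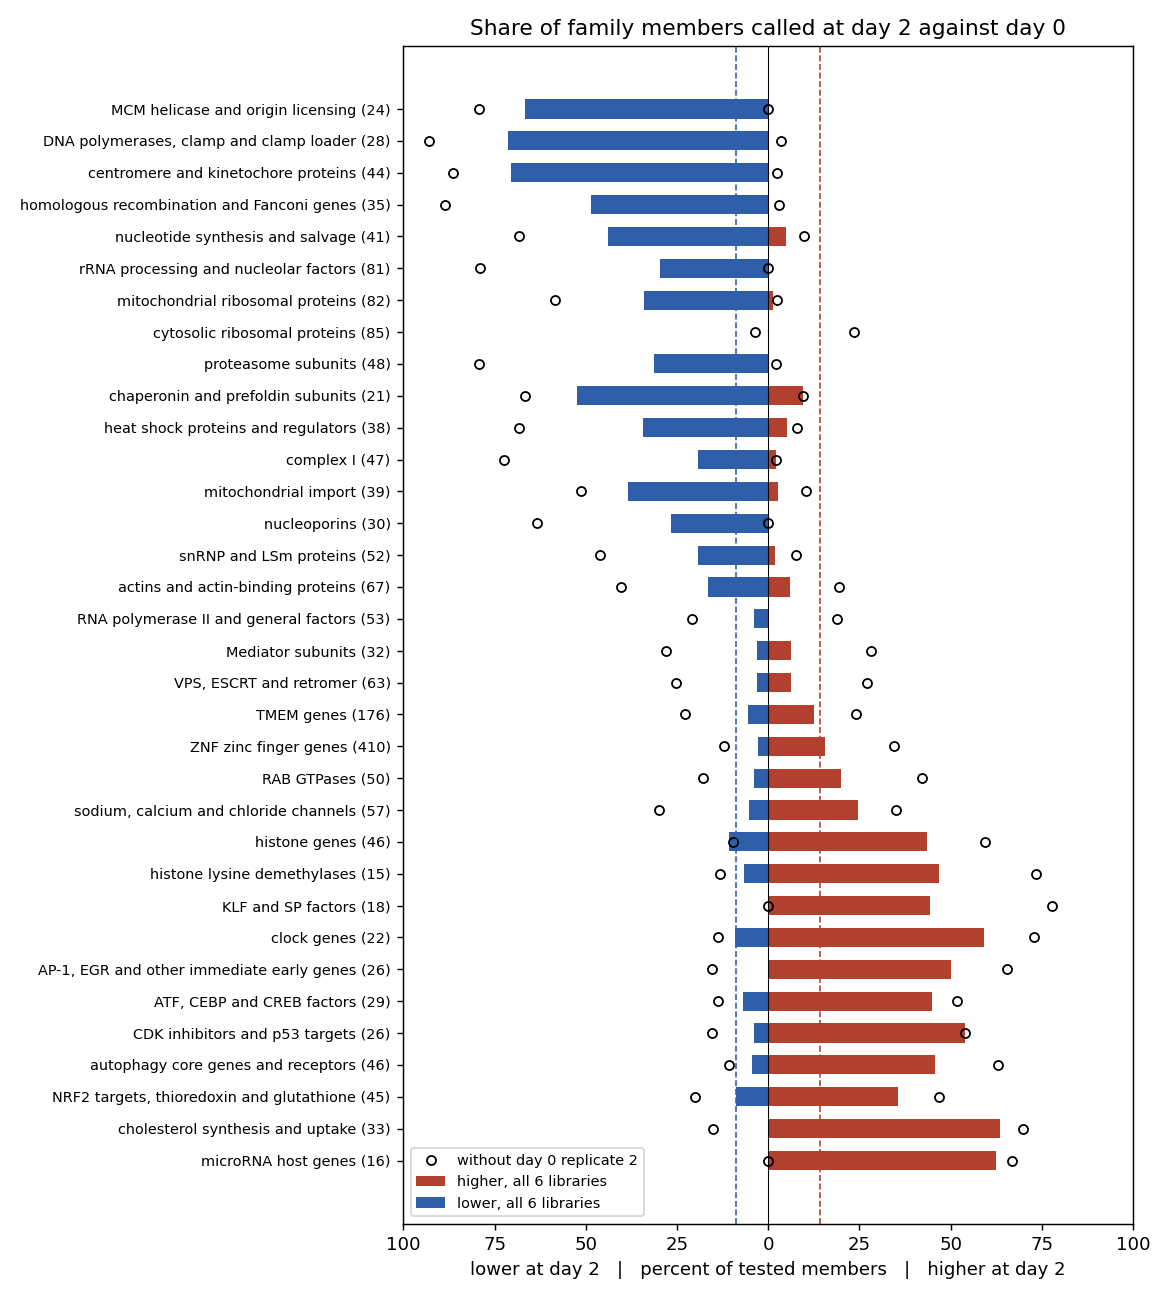
For each family the bars give the percentage of tested members (number in brackets) called lower (blue, left) and higher (red, right) with all 6 libraries, the open circles the same without day 0 replicate 2, and the dashed lines the share of all tested genes with 6 libraries, 8.89% lower and 14.3% higher. The bars of replication, kinetochore, chaperonin and homologous recombination genes reach furthest left, and those of clock, cholesterol and microRNA host genes far right.

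Part of the genes for making ribosomes fell, on both the cytosolic and the mitochondrial side, whereas no ribosomal protein of the cytosol was called. Of 81 rRNA processing and nucleolar genes 24 were lower and none higher, and 64 were lower without day 0 replicate 2. NOP16, a nucleolar protein of the large subunit, was at 81.8, 106 and 72.95 TPM at day 0 and 11.5, 11.96 and 11.4 TPM at day 2 (-2.78 ± 0.20 (SE, adjusted p = 0.00114)). EBNA1BP2, another assembly factor, was at 361, 422 and 348 TPM at day 0 and 74.2, 71.9 and 77.5 TPM at day 2 (-2.32 ± 0.17 (SE, adjusted p = 0.00114)), and BOP1 changed by -2.43. Of 82 mitochondrial ribosomal proteins 28 fell and 1 rose (48 and 2). MRPL15 was at 65.1, 117 and 62.1 TPM at day 0 and 17.6, 17.3 and 18.8 TPM at day 2 (-2.06 ± 0.28 (SE, adjusted p = 0.00529)), and MRPS6 was the rise, at 1.05. None of 85 cytosolic ribosomal proteins was called by limma with 6 libraries, at a median change of -0.23. Without day 0 replicate 2, in which these genes took 24.2% of TPM, 20 were higher and 3 lower at a median of 0.14, so that the sign of the median turned. Translation initiation factors gave 9 falls and 5 rises of 54 (23 and 10), with EIF3C at -1.44 and EIF4A2 at 1.26. Among 84 tRNA-modifying enzymes 16 fell and 3 rose (36 and 14), led by WDR4 (-2.67). SRM, which makes spermidine, was at 392, 304 and 348 TPM at day 0 and 79.1, 87.6 and 82.7 TPM at day 2 (-2.05 ± 0.18 (SE, adjusted p = 0.00163)). Of the 9 called genes described, 6 kept their call without each of the 6 libraries in turn; MRPS6, EIF3C and EIF4A2 lost it without at least 1 day 2 library, with a highest adjusted p of 0.0515 to 0.159. The call of MRPS6 was also lost without day 0 replicate 1 or 3.

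Within RNA handling few genes of the general machinery were called, and some of the splicing and transport genes fell. Of 53 RNA polymerase II and general factor genes none rose and 2 fell, of 32 Mediator subunits 2 rose and 1 fell, and of 14 Integrator subunits none was called with 6 libraries. These shares lie below the background, and without day 0 replicate 2 the 3 families gave 10 and 11, 9 and 9, and 1 and 5 rises and falls. Of 30 nucleoporins 8 fell and none rose (19 falls without day 0 replicate 2), and of 52 snRNP and LSm genes 10 fell and 1 rose (24 and 4). NDC1, a membrane nucleoporin, was at 35.3, 25.7 and 34.9 TPM at day 0 and 6.67, 7.88 and 7.71 TPM at day 2 (-1.96 ± 0.22 (SE, adjusted p = 0.00304)). LSM10, a subunit of the histone message processing particle, was at 62.8, 68.7 and 65.7 TPM at day 0 and 17.2, 21.4 and 17.8 TPM at day 2 (-1.76 ± 0.18 (SE, adjusted p = 0.00248)). SR proteins and their kinases gave 9 rises and 2 falls of 26 (10 and 7), a balance that turned to 1 rise and 3 falls after median-ratio scaling. SRSF2, a splicing activator, was at 294, 317 and 295 TPM at day 0 and 109.8, 113 and 129 TPM at day 2 (-1.36 ± 0.17 (SE, adjusted p = 0.00395)), while the splicing kinase CLK1 rose by 1.14. Of the 4 called genes described, 3 kept their call without each of the 6 libraries in turn; CLK1 lost it without at least 1 day 2 library, with a highest adjusted p of 0.0706.

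Falls outnumbered rises among proteasome, chaperonin and heat shock genes. Of 48 proteasome genes 15 were lower and none higher (38 and 1 without day 0 replicate 2). PSMB3, a core subunit, was at 239, 707 and 235 TPM at day 0 and 64.7, 75.03 and 68.5 TPM at day 2 (-2.28 ± 0.44 (SE, adjusted p = 0.0156)), with day 0 replicate 2 far above the other 2. Of 21 chaperonin and prefoldin genes 11 fell and 2 rose (14 and 2). CCT5, a ring subunit of the chaperonin that folds actin and tubulin, was at 208, 203 and 202 TPM at day 0 and 57.6, 56.3 and 53.9 TPM at day 2 (-1.85 ± 0.16 (SE, adjusted p = 0.00146)), and CCT2 changed by -1.46. Of 38 heat shock genes 13 fell and 2 rose (26 and 3). HSPA8, the constitutive HSP70, was at 1288, 931 and 1065 TPM at day 0 and 308, 337 and 234 TPM at day 2 (-1.90 ± 0.23 (SE, adjusted p = 0.00393)). HSP90AA1 was at 560.4, 638 and 502 TPM at day 0 and 183, 172 and 224 TPM at day 2 (-1.55 ± 0.20 (SE, adjusted p = 0.00453)). Its cochaperones AHSA1 (-2.02) and FKBP4 (-2.07), the small heat shock protein HSPB1 (-1.92) and HSPH1 (-1.98) fell with it. Against this, genes of degradation from the endoplasmic reticulum and of the unfolded protein response gave 8 rises and 1 fall of 35 (13 and 5). Among ubiquitin enzymes RNF genes gave 11 rises and 2 falls of 65 (24 and 9), ubiquitin-specific proteases 6 and 4 of 59 (18 and 10), and TRIM genes 7 and 1 of 39 (15 and 10, and 5 and 8 after median-ratio scaling). E2 enzymes gave 5 and 3 of 37 (11 and 11, and 4 and 6 after median-ratio scaling). Of the 9 called genes described, 8 kept their call without each of the 6 libraries in turn; PSMB3 lost it without at least 1 day 2 library, with a highest adjusted p of 0.0825.

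Parts of the mitochondrial machinery fell, against backgrounds of 8.89% lower and, without day 0 replicate 2, 26.5%. Of 47 complex I genes 9 were lower and 1 higher (34 and 1 without day 0 replicate 2), of 26 genes of complexes II, III and IV 2 were lower and none higher (7 lower), shares near the background, and of 22 ATP synthase genes 4 were lower and 1 higher (13 and 1). NDUFB10, a complex I subunit, was at 159, 289 and 202 TPM at day 0 and 41.9, 62.03 and 51.3 TPM at day 2 (-2.02 ± 0.28 (SE, adjusted p = 0.005498)). The gene called higher in the complex I list was NDUFA4L2, whose NDUF symbol does not make it an established subunit of complex I. It was at 0.665, 0.172 and 0.722 TPM at day 0 and 3.97, 2.76 and 3.57 TPM at day 2 (log2 change 1.56 ± 0.22 (SE)). NDUFA4L2 is a known target of hypoxia-inducible factors. Import genes gave 15 falls and 1 rise of 39 (20 and 4), with the chaperone of the intermembrane space TIMM8A at -1.82. TCA cycle and pyruvate genes were mixed, with 4 rises and 3 falls of 36 (5 and 14, and 4 and 5 after median-ratio scaling). PDK1, the kinase that closes pyruvate dehydrogenase, was at 2.198, 2.64 and 2.69 TPM at day 0 and 27.1, 29.8 and 32.7 TPM at day 2 (3.14 ± 0.20 (SE, adjusted p = 0.000927)). No gene encoded by mitochondrial DNA was in the table used here. Of the 3 called genes described that every such fit tested, 2 kept their call without each of the 6 libraries in turn; TIMM8A lost it without at least 1 day 2 library, with a highest adjusted p of 0.0533. NDUFA4L2 could not be tested without a day 2 library.

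Most of the circadian clock genes rose. Of 22 clock genes 13 were higher and 2 lower, with a median change of 1.55 (16 and 3 without day 0 replicate 2, median 1.18). In the clock CLOCK and ARNTL drive the period, cryptochrome, NR1D and BHLHE genes, whose products turn them off again. Among the repressors PER1 was at 2.86, 0.905 and 3.47 TPM at day 0 and 30.7, 42.1 and 38.9 TPM at day 2 (3.57 ± 0.37 (SE, adjusted p = 0.00251)). NR1D1, which silences ARNTL, was at 7.53, 3.47 and 7.58 TPM at day 0 and 43.5, 64.9 and 57.1 TPM at day 2 (3.01 ± 0.33 (SE, adjusted p = 0.00294)). BHLHE40, also known as a target of hypoxia-inducible factors, was at 44.2, 20.7 and 58.5 TPM at day 0 and 247, 304 and 295 TPM at day 2 (2.86 ± 0.38 (SE, adjusted p = 0.00506)). In all 3 genes day 0 replicate 2 was the lowest library. BHLHE41 changed by 2.09, NR1D2 by 2.03 and PER2 by 1.77, and the output factors TEF by 2.37, NFIL3 by 2.24 and DBP by 1.75. ARNTL was at 2.997, 1.11 and 2.87 TPM at day 0 and 8.74, 8.97 and 9.03 TPM at day 2 (1.63 ± 0.30 (SE, adjusted p = 0.0126)), and CLOCK did not pass the test. The falls were TIMELESS (-1.95), which also works at replication forks, and ARNTL2 (-0.95). Each day was sampled at 1 time of unknown hour, so phase cannot be told apart from level. Of the 12 called genes described, 6 kept their call without each of the 6 libraries in turn; ARNTL, NR1D2, PER2, DBP, TIMELESS and ARNTL2 lost it without at least 1 day 2 library, with a highest adjusted p of 0.0506 to 0.174. The calls of TIMELESS and ARNTL2 were also lost without day 0 replicate 1 or 3.

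The E-box, CACGTG, reads the same on both strands and is an element that CLOCK and ARNTL bind. It was in 6 of 18 clock gene windows (33.3%), in 7.43% of all 27305 windows and in 10.3% of those of tested genes. It was not confined to clock genes. Arrestin-domain and glucose-sensing genes held it in 2 of 9 windows and cholesterol genes in 5 of 27. Among falling families it was in 4 of 21 MCM and licensing windows and 5 of 29 of cyclins, kinases and anaphase-promoting complex genes. Kinetochore genes held it in 4 of 36 and polymerase and clamp genes in 2 of 24. Which factor binds these matches was not tested. The windows of PER1 (chr17:8152355-8152654, minus strand) and BHLHE40 (chr3:4979187-4979486, plus strand) are shown because they hold an E-box, in capitals. The window of NR1D1, also described above, held none.
PER1: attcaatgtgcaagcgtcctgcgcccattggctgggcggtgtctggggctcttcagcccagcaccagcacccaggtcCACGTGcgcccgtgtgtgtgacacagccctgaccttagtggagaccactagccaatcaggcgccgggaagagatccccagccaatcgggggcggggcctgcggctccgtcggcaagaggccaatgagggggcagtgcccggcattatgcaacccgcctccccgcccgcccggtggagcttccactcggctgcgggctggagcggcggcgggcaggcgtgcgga
BHLHE40: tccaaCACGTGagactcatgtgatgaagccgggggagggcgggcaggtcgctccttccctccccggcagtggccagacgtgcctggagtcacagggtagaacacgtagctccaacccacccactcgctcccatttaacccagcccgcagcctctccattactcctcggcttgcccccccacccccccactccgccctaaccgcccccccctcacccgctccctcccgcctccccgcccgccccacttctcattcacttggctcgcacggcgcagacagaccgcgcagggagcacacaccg

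Members of several families of transcription factors rose. Of 18 KLF and SP factors 8 were higher and none lower (14 and 0 without day 0 replicate 2), and of 36 nuclear receptors and corepressors 9 were higher and none lower (17 and 4). KLF11 was at 6.46, 2.68 and 5.45 TPM at day 0 and 21.9, 21.997 and 21.1 TPM at day 2 (2.01 ± 0.31 (SE, adjusted p = 0.007398)), with the 3 day 2 libraries within 1 TPM of each other. Of 26 AP-1, EGR and other immediate early genes 13 rose and none fell (17 and 4). JUND, an AP-1 subunit, was at 54.04, 76.4 and 53.7 TPM at day 0 and 226, 261 and 252 TPM at day 2 (2.00 ± 0.21 (SE, adjusted p = 0.00254)). Of 29 ATF, CEBP and CREB factors 13 rose and 2 fell (15 and 4), and of 26 forkhead factors 9 rose and 2 fell (11 and 5). FOXO3, a factor held out of the nucleus by insulin signalling, was at 13.98, 3.63 and 13.8 TPM at day 0 and 36.6, 43.7 and 42.2 TPM at day 2 (2.05 ± 0.48 (SE, adjusted p = 0.0274)), with day 0 replicate 2 the lowest. MXI1, an antagonist of MYC, was at 3.03, 3.49 and 3.26 TPM at day 0 and 40.4, 43.7 and 43.9 TPM at day 2 (3.36 ± 0.19 (SE, adjusted p = 0.000769)). The helix-loop-helix inhibitor ID1 was at 666, 1384 and 792 TPM at day 0 and 178, 179.6 and 178 TPM at day 2 (-2.33 ± 0.30 (SE, adjusted p = 0.00454)), nearly equal in the day 2 libraries, and ID3 changed by -1.89. Zinc finger genes with ZNF symbols gave 64 rises and 12 falls of 410 tested (141 and 50), a share of rises close to the background. Of the 6 called genes described, 3 kept their call without each of the 6 libraries in turn; KLF11, FOXO3 and ID3 lost it without at least 1 day 2 library, with a highest adjusted p of 0.0553 to 0.113.

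**Figure D3:**
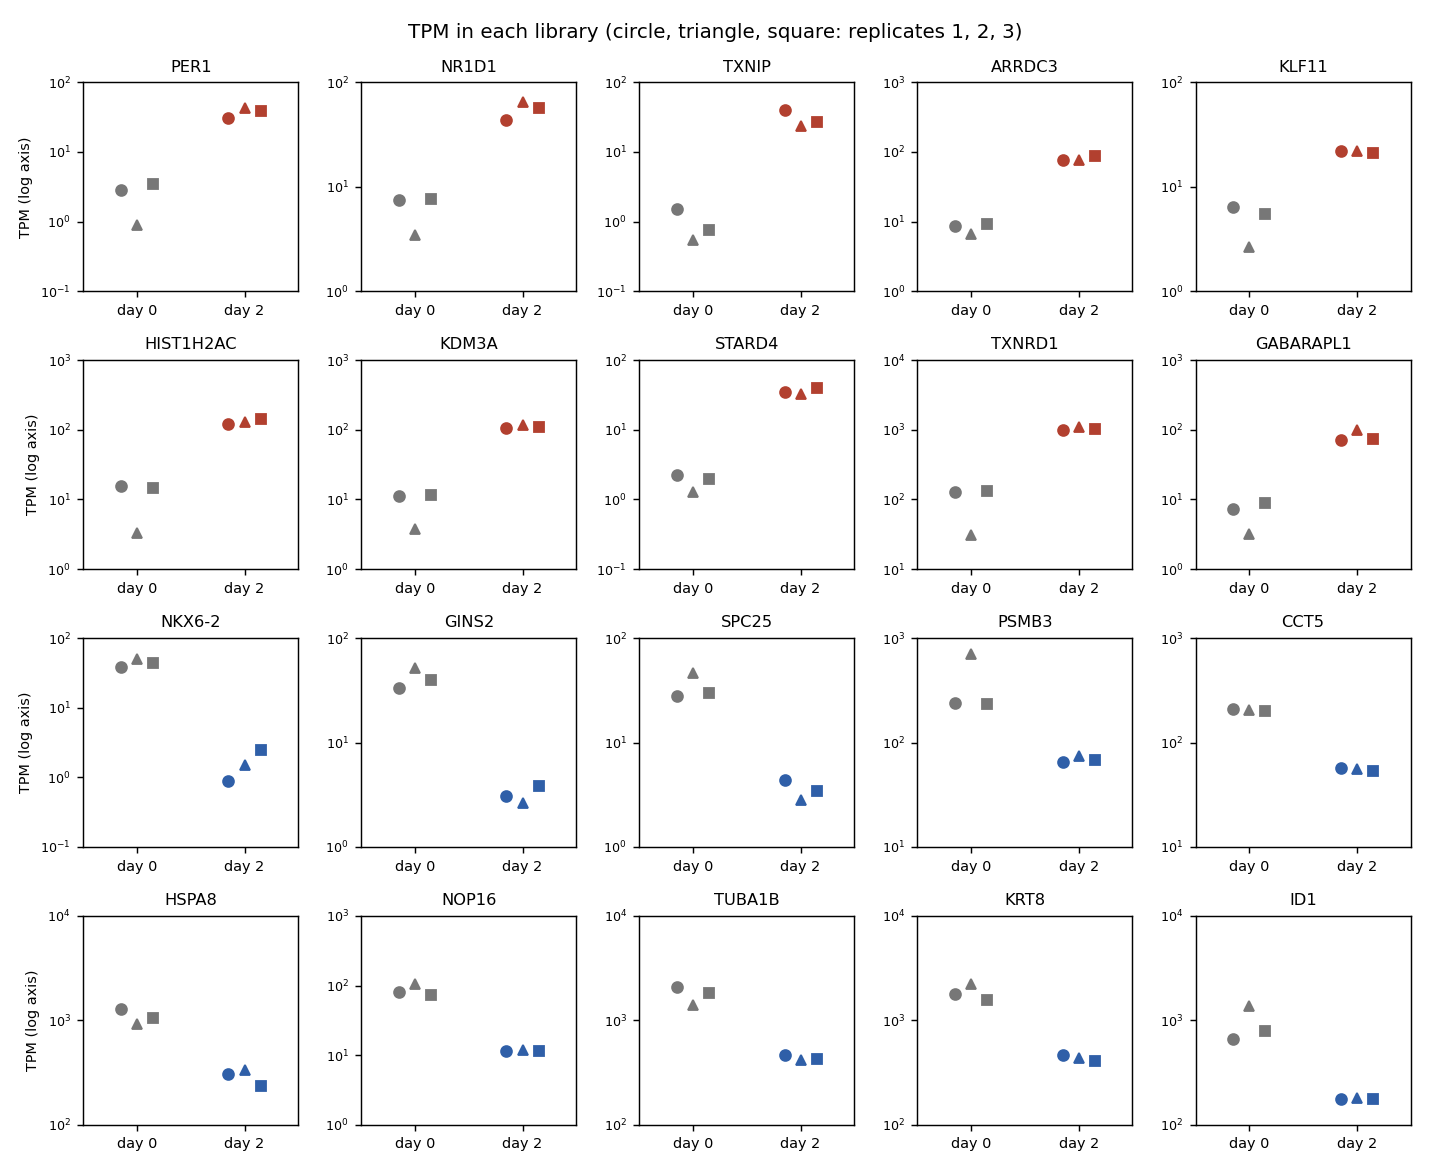
TPM of 20 genes in each library on a log axis, day 0 in grey and day 2 in red (called higher) or blue (called lower), with circle, triangle and square for replicates 1, 2 and 3. In every panel the 3 libraries of day 2 lie on 1 side of those of day 0, and in the rising genes day 0 replicate 2 (triangle) is the lowest day 0 library.

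Some genes that sense nutrients and many that digest the cell rose. Of 10 arrestin-domain genes and glucose-sensing factors 5 were higher and none lower (7 and 1 without day 0 replicate 2). TXNIP, which limits glucose uptake, was at 1.54, 0.5502 and 0.764 TPM at day 0 and 40.1, 23.4 and 26.9 TPM at day 2 (3.99 ± 0.31 (SE, adjusted p = 0.00126)). TXNIP is usually described as induced by glucose, and here the medium was labelled with little of it at both days. ARRDC3, a relative, was at 8.51, 6.55 and 9.29 TPM at day 0 and 76.1, 75.8 and 87.6 TPM at day 2 (3.16 ± 0.20 (SE, adjusted p = 0.000927)). AMPK, mTORC1 and TSC pathway genes gave 11 rises and 3 falls of 49 (16 and 8), and insulin and PI3K genes 9 and 2 of 38 (16 and 8). Rises were 22.4% and 23.7% of these families, against backgrounds of 14.3% and, without day 0 replicate 2, 26.9%. The AMPK, mTORC1 and TSC median was 0.32 against 0.22 over all genes, and 0.02 against 0.01 without that library. PIK3IP1, an inhibitor of PI3 kinase, was at 0.255, 0.508 and 0.513 TPM at day 0 and 8.71, 13.1 and 11.99 TPM at day 2 (log2 change 3.09 ± 0.22 (SE)). IRS2, the insulin receptor substrate, changed by 2.29. The binding proteins of insulin-like growth factors went both ways, with IGFBP3 at 3.20 and IGFBP1 at 2.80 but IGFBP4 at 324, 325 and 389 TPM at day 0 and 93.5, 93.3 and 82.5 TPM at day 2 (-1.93 ± 0.17 (SE, adjusted p = 0.00181)). Of the 6 called genes described that every such fit tested, 5 kept their call without each of the 6 libraries in turn; IRS2 lost it without at least 1 day 2 library, with a highest adjusted p of 0.0661. PIK3IP1 could not be tested without a day 2 library.

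Of 46 autophagy genes 21 rose and 2 fell (29 and 5 without day 0 replicate 2). The rises covered the proteins that coat the autophagosome. GABARAPL1 was at 7.19, 3.24 and 8.79 TPM at day 0 and 72.3, 99.7 and 72.7 TPM at day 2 (3.55 ± 0.35 (SE, adjusted p = 0.00244)), MAP1LC3B changed by 2.54 and MAP1LC3A by 2.41. Receptors that bring cargo rose as well. BNIP3L, which marks mitochondria for removal, was at 8.29, 8.34 and 10.5 TPM at day 0 and 87.96, 88.02 and 87.6 TPM at day 2 (3.15 ± 0.18 (SE, adjusted p = 0.000769)), with each day nearly constant. BNIP3 changed by 3.36 and SQSTM1, which carries ubiquitinated proteins, by 1.86. The falls were of ATG7 (-0.95), an enzyme of the conjugation step, and ATG101 (-0.98), a partner of the initiating kinase. Lysosomal hydrolases and membrane proteins were mixed, with 6 rises and 8 falls of 52 (10 and 16), and the lysosomal V-ATPase gave 1 rise and 3 falls of 19 (2 and 5). Of the 8 called genes described, 6 kept their call without each of the 6 libraries in turn; ATG7 and ATG101 lost it without at least 1 day 2 library, with a highest adjusted p of 0.139 to 0.1402. The call of ATG7 was also lost without day 0 replicate 1 or 3 and the call of ATG101 was also lost without day 0 replicate 3.

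**Figure D4:**
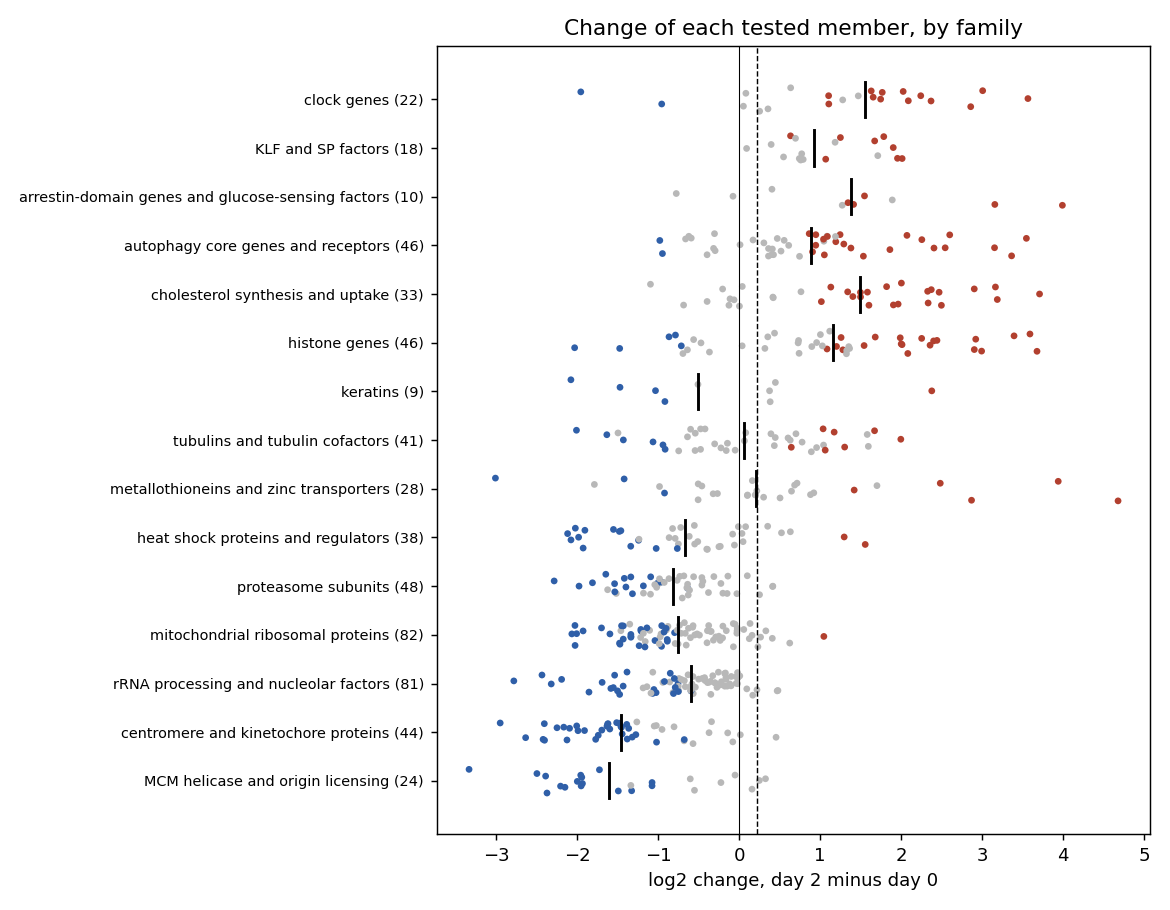
Each point is 1 tested member of a family (number in brackets), placed by its log2 change, day 2 minus day 0, with all 6 libraries; red and blue mark calls, grey no call, the short black bars family medians and the dashed line the median of all tested genes, 0.22. Clock and cholesterol genes centre to the right, kinetochore and MCM genes to the left, and tubulins and zinc genes spread to both sides.

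In lipid metabolism most genes of the sterol pathway rose. Of 33 cholesterol synthesis and uptake genes 21 were higher and none lower, with a median change of 1.5 (23 and 5 without day 0 replicate 2). STARD4, a cytosolic sterol carrier, was at 2.27, 1.27 and 1.97 TPM at day 0 and 34.7, 32.5 and 40.5 TPM at day 2 (3.71 ± 0.23 (SE, adjusted p = 0.000927)). INSIG1, which holds the sterol-sensing complex in the endoplasmic reticulum, was at 13.7, 13.4 and 10.03 TPM at day 0 and 96.4, 98.1 and 100.03 TPM at day 2 (2.90 ± 0.19 (SE, adjusted p = 0.000986)), and SREBF1, a transcription factor of lipid synthesis, at 19.7, 19.2 and 24.7 TPM at day 0 and 111, 148 and 115 TPM at day 2 (2.50 ± 0.21 (SE, adjusted p = 0.00143)). Enzymes along the pathway rose from its start, HMGCS1 (2.47), to its later steps, MSMO1 (2.33) and DHCR7 (3.17). A sterol element, searched as TCACNCCAC on both strands with N any base, was in 1 of the 27 promoter windows of this family (3.70%). It was in 1.12% of the windows of tested genes. The windows of INSIG1, HMGCS1, STARD4 and DHCR7 held no match. ACSS2, which makes acetyl-CoA from acetate, was at 4.73, 2.32 and 4.56 TPM at day 0 and 41.5, 34.99 and 45.3 TPM at day 2 (3.13 ± 0.28 (SE, adjusted p = 0.00181)). Fatty acid synthesis and desaturation genes gave 7 rises and 2 falls of 23 (9 and 7), and fatty acid oxidation genes 3 and 4 of 35 (9 and 13). Glycerolipid and lipid droplet genes gave 7 and 3 of 31, which became 8 and 11 without that library and 6 of each after median-ratio scaling. LPIN1, a phosphatase on the way to triglycerides, changed by 3.32 and the droplet coat PLIN2 by 1.75. Of the 9 called genes described, 8 kept their call without each of the 6 libraries in turn; DHCR7 lost it without at least 1 day 2 library, with a highest adjusted p of 0.0631. The log2 change without day 0 replicate 2 was 2.50 for DHCR7.

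Among redox genes rises outnumbered falls. Of 45 targets of NRF2 and thioredoxin and glutathione genes 16 were higher and 4 lower (21 and 9 without day 0 replicate 2). TXNRD1, thioredoxin reductase, was at 126, 31.3 and 132 TPM at day 0 and 985, 1089.9 and 1043 TPM at day 2 (3.67 ± 0.55 (SE, adjusted p = 0.00712)), and day 0 replicate 2 was far below the other day 0 libraries. Both subunits of glutamate-cysteine ligase rose, GCLC at 8.704, 8.72 and 11.2 TPM at day 0 and 96.7, 78.7 and 68.7 TPM at day 2 (2.96 ± 0.22 (SE, adjusted p = 0.00114)) and GCLM by 2.98. OSGIN1 changed by 3.85 and NQO1 by 1.997. The falls included GPX1, a glutathione peroxidase, at 169, 359.7 and 180.4 TPM at day 0 and 53.9, 61.3 and 43.4 TPM at day 2 (-2.06 ± 0.33 (SE, adjusted p = 0.00896)). In iron handling the ferritin light chain FTL was at 1542, 2322 and 1384 TPM at day 0 and 5339.9, 7217 and 5665 TPM at day 2 (1.82 ± 0.29 (SE, adjusted p = 0.008298)) and the transferrin receptor TFRC at 155, 101 and 138 TPM at day 0 and 26.9, 36.2 and 26.4 TPM at day 2 (-2.09 ± 0.24 (SE, adjusted p = 0.00332)), so storage and uptake messages moved in opposite directions. Haem, iron and iron-sulphur genes as a family gave 6 rises and 9 falls of 43 (9 and 19). Metallothioneins and zinc transporters gave 5 rises and 3 falls of 28 (10 and 10, and 5 and 8 after median-ratio scaling), among them the zinc exporter SLC30A1 (2.87). Metallothionein genes are near copies of each other, and their values are uncertain. Of the 9 called genes described, 6 kept their call without each of the 6 libraries in turn; GPX1, FTL and SLC30A1 lost it without at least 1 day 2 library, with a highest adjusted p of 0.0562 to 0.0737. The log2 change without day 0 replicate 2 was 2.998 for TXNRD1 and 2.22 for SLC30A1.

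Among secreted peptide hormones 6 of 15 rose and 2 fell (8 and 2 without day 0 replicate 2). STC2, stanniocalcin 2, was at 59.9, 15.8 and 52.8 TPM at day 0 and 569.6, 575 and 536 TPM at day 2 (3.88 ± 0.49 (SE, adjusted p = 0.00443)). NPPC, C-type natriuretic peptide, was at 0.739, 1.68 and 2.89 TPM at day 0 and 21.05, 25.3 and 26.1 TPM at day 2 (3.25 ± 0.33 (SE, adjusted p = 0.00248)), and GDF15, a stress hormone, at 505, 444 and 467 TPM at day 0 and 1835, 2134 and 1713 TPM at day 2 (2.00 ± 0.19 (SE, adjusted p = 0.00209)). ADM, adrenomedullin, changed by 3.12. The neuropeptide galanin, GAL, moved the other way, at 23.7, 40.1 and 23.97 TPM at day 0 and 1.75, 5.04 and 3.82 TPM at day 2 (-2.77 ± 0.38 (SE, adjusted p = 0.00526)), and so did NUCB2 (-1.49). Genes listed under the FGF, PDGF and VEGF families gave 8 rises and 1 fall of 24 (12 and 6), with PDGFB at 23.4, 11.9 and 32.04 TPM at day 0 and 166, 192 and 202 TPM at day 2 (3.10 ± 0.36 (SE, adjusted p = 0.00332)) and FGF11 changed by 3.19. Chemokines and interleukins gave 1 rise and 4 falls of 18 (3 and 4). CCL2, which attracts monocytes, was at 151, 228 and 176 TPM at day 0 and 32.9, 28.2 and 39.3 TPM at day 2 (-2.42 ± 0.23 (SE, adjusted p = 0.00209)). Of the 9 called genes described, 8 kept their call without each of the 6 libraries in turn; NUCB2 lost it without at least 1 day 2 library, with a highest adjusted p of 0.0609. The log2 change without day 0 replicate 2 was 3.29 for STC2.

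Collagens and their modifying enzymes gave 9 rises and 3 falls of 41, a balance that turned to 11 and 15 without day 0 replicate 2 and was 9 of each after quantile normalization. The enzymes that modify collagen led the rises. P4HA1, a prolyl hydroxylase, was at 20.7, 18.1 and 18.6 TPM at day 0 and 186, 219 and 215 TPM at day 2 (3.36 ± 0.17 (SE, adjusted p = 0.000769)), and PLOD2, a lysyl hydroxylase, at 53.9, 33.3 and 54.7 TPM at day 0 and 363, 339 and 387 TPM at day 2 (2.95 ± 0.24 (SE, adjusted p = 0.001401)). LOXL4, which crosslinks collagen, changed by 2.29, and the secreted matrix-associated protein WISP2 by 3.51. P4HA1 and PLOD2 are also known targets of hypoxia-inducible factors. Integrins gave 3 rises and no fall of 30 with 6 libraries, and 4 rises and 16 falls without day 0 replicate 2, and 3 and 4 after median-ratio scaling. Laminins and basement membrane genes gave 2 and none of 18 (4 and 5, and 2 of each after median-ratio scaling). The calls of all 4 genes described held without each of the 6 libraries in turn.

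In the cytoskeleton, members of one family moved in opposite directions. Of 9 keratins 4 fell and 1 rose (4 and 2 without day 0 replicate 2). KRT8, the main type II keratin of simple epithelia, was at 1794, 2253 and 1563 TPM at day 0 and 468, 435 and 413 TPM at day 2 (-2.08 ± 0.21 (SE, adjusted p = 0.00248)), and its partner KRT18 at 986, 1091 and 948 TPM at day 0 and 373, 383 and 334 TPM at day 2 (-1.47 ± 0.18 (SE, adjusted p = 0.00381)). KRT80 rose instead, at 76.5, 19.2 and 114 TPM at day 0 and 260.2, 318 and 304 TPM at day 2 (2.38 ± 0.62 (SE, adjusted p = 0.03798)), with day 0 replicate 2 far below. Of 67 actins and actin-binding genes 11 fell and 4 rose (27 and 13). Cofilin, CFL1, was at 1398, 1129 and 1390.1 TPM at day 0 and 542, 533 and 599 TPM at day 2 (-1.22 ± 0.19 (SE, adjusted p = 0.008102)). Tubulins and their cofactors gave 7 rises and 6 falls of 41 (11 and 18, and 5 and 11 after median-ratio scaling). TUBA1B was at 2079.6, 1414 and 1845 TPM at day 0 and 468, 419.5 and 424 TPM at day 2 (-2.01 ± 0.22 (SE, adjusted p = 0.00286)), whereas TUBA1A was at 56.7, 74.6 and 41.6 TPM at day 0 and 232, 204 and 246 TPM at day 2 (2.00 ± 0.25 (SE, adjusted p = 0.00432)). TUBB4B changed by -1.63 and TUBB2B by 1.67. Tubulin genes are similar in sequence, and how reads were shared among them was not given in the sources used here. Claudins and tight junction genes gave 6 rises and 1 fall of 30 (9 and 7), or 5 of each after median-ratio scaling, with CLDN3 at 2.68 and CLDN4 at 2.05. Of the 10 called genes described, 7 kept their call without each of the 6 libraries in turn; KRT80, CFL1 and TUBB4B lost it without at least 1 day 2 library, with a highest adjusted p of 0.0695 to 0.135. The call of KRT80 was also lost without day 0 replicate 1. The log2 change without day 0 replicate 2 was 1.64 for KRT80.

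Sodium, calcium and chloride channels gave 14 rises and 3 falls of 57 (20 and 17 without day 0 replicate 2), and potassium channels 4 and 1 of 20 (7 and 6, and 5 of each after quantile normalization). KCNK15, a tandem-pore potassium channel, was at 4.27, 4.42 and 3.45 TPM at day 0 and 34.6, 28.99 and 31.4 TPM at day 2 (2.70 ± 0.20 (SE, adjusted p = 0.00119)). The calcium-activated channel KCNMA1 moved down, at 78.6, 182 and 86.002 TPM at day 0 and 45.7, 40.6 and 43.6 TPM at day 2 (-1.29 ± 0.34 (SE, adjusted p = 0.0391)). Of the 2 called genes described, 1 kept its call without each of the 6 libraries in turn; KCNMA1 lost it without at least 1 day 2 library, with a highest adjusted p of 0.1402. The call of KCNMA1 was also lost without day 0 replicate 3.

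Long RNAs without a protein product were called higher more often than lower. LINC symbols gave 47 rises and 3 falls of 151 tested (74 and 8 without day 0 replicate 2), and antisense symbols 90 and 5 of 313 (119 and 18). Most of these genes were too low to be tested, 1635 LINC and 1126 antisense symbols being in the table, and a gene that passes the level filter through 1 day alone had to differ. Genes of this kind made up 16 of the 50 LINC calls (32.0%) and 34 of the 95 antisense calls (35.8%). The counts of rises and falls therefore describe the tested genes and not the classes. Over all tested genes 14.3% were higher and 8.89% lower. Without a stated strand setting, reads of an antisense gene and of its partner cannot be told apart. Host genes of microRNAs gave 10 rises and no fall of 16 tested of 51 (10 and 0), and snoRNA host genes 6 and 3 of 26 (12 and 5, and 2 and 3 after median-ratio scaling). NEAT1, the scaffold of nuclear paraspeckles, was at 53.4, 17.9 and 46.1 TPM at day 0 and 360.3, 369 and 333 TPM at day 2 (3.28 ± 0.41 (SE, adjusted p = 0.004196)). MIR210HG, host of a hypoxia microRNA, was at 0.457, 0.276 and 0.561 TPM at day 0 and 15.8, 21.2 and 16.5 TPM at day 2 (log2 change 3.71 ± 0.21 (SE)), and MIR22HG at 9.48, 8.66 and 9.61 TPM at day 0 and 41.2, 46.7 and 47.9 TPM at day 2 (2.17 ± 0.18 (SE, adjusted p = 0.00143)). SNHG16 was among the falls, at -0.79. Of the 3 called genes described that every such fit tested, 2 kept their call without each of the 6 libraries in turn; SNHG16 lost it without at least 1 day 2 library, with a highest adjusted p of 0.142. The call of SNHG16 was also lost without day 0 replicate 1 or 3. MIR210HG could not be tested without a day 2 library.

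Membrane traffic genes were called at shares mostly near or below the background. Coat proteins of COPI and COPII gave no rise and 3 falls of 39 (4 and 14 without day 0 replicate 2), and VPS, ESCRT and retromer genes 4 and 2 of 63 (17 and 16, and 3 and 8 after median-ratio scaling). RAB GTPases gave 10 rises and 2 falls of 50 (21 and 9). RAB39B, a RAB of early autophagy and sorting, was at 0.407, 0.544 and 0.519 TPM at day 0 and 17.96, 12.2 and 17.05 TPM at day 2 (log2 change 3.47 ± 0.22 (SE)). In ubiquitin ligase families F-box genes gave 13 rises and 5 falls of 57 (21 and 8), and Kelch-like genes and cullins 11 and 1 of 53 (18 and 12). KLHL24 was at 1.06, 0.305 and 1.03 TPM at day 0 and 15.1, 19.7 and 15.2 TPM at day 2 (3.32 ± 0.26 (SE, adjusted p = 0.00137)). SKP2, the F-box protein that marks p27 for destruction, was at 10.3, 8.23 and 12.2 TPM at day 0 and 2.45, 3.101 and 2.15 TPM at day 2 (-1.65 ± 0.23 (SE, adjusted p = 0.00594)), opposite in direction to the p27 message. Among families named only by symbol there were 22 rises and 10 falls of 176 TMEM genes (18 and 23 after median-ratio scaling), 6 and 6 of 54 WDR genes and 10 and 11 of 83 CCDC genes. FAM genes gave 25 and 13 of 165 (21 and 23 after median-ratio scaling) and ANKRD genes 2 and 2 of 32, or 3 and 5 after that scaling. TBC1D genes gave 8 and 3 of 30 (26.7% higher), a larger share than the background of 14.3% with all 6 libraries. Of these 11 calls, 2 were of genes under 1 TPM in all 3 libraries of 1 day, which had to differ. For the families named only by symbol, counts without day 0 replicate 2 are not printed here. Of the 2 called genes described that every such fit tested, 1 kept its call without each of the 6 libraries in turn; SKP2 lost it without at least 1 day 2 library, with a highest adjusted p of 0.0529. RAB39B could not be tested without a day 2 library.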

How the data were processed

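RNA was sequenced from 9 PANC-1 samples, of which the 3 of day 0 and the 3 of day 2 were analysed here. The authors deposited 1 table of TPM for 27800 gene symbols, and the submitters' processing notes name Salmon and the build hg19. The version of Salmon, its annotation, strand setting and read filters are not given in the sources used here. These TPM are shares of their own library and do not record depth, so no counting interval was given.

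A gene entered where 3 or more of the 6 libraries had 1 TPM or more. Values of log2(TPM + 1) were tested in limma 3.58.1 (R 4.3.3) with its trend option, two-sided, and p-values were adjusted by Benjamini-Hochberg over all tested genes at 0.05. Each count was repeated without day 0 replicate 2. Fold changes on this scale understate those of low genes. For no gene did 2 of the 6 libraries hold the same nonzero value. The fit was tested on simulated data over 13494 genes. All 6 libraries gave back 2 of 100 simulated 2-fold changes and 59 of 100 simulated 4-fold changes, with 1 false call among 62. The fit lacking day 0 replicate 2 gave back 15 and 83, with 3 false calls among 101. The simulated noise was independent between genes and of the same size for every gene of a library. Real spread can differ by gene and be shared between genes, so these rates do not give the power or false calls of the real fit.

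The 159 families, the members and the rule for named genes were chosen with earlier results of these data known. The rule took the 20 largest rises and falls called with and without day 0 replicate 2, the 3 largest called rises and falls of each family at a mean of at least 5 TPM in the higher day, any member of a family of 15 or fewer, and some control and marker genes. Not all are printed. Outside the rule, and chosen after their values had been seen, are PCNA, MCM3, CDC6, RFC4, DSN1, CCND3, CCNE2, CCNA2, CDKN1C, CDKN1B, GADD45B, H1F0, HSPA8, HSP90AA1, HSPB1, HSPH1, NDUFA4L2, CLOCK, ARNTL, BHLHE41, PER2, TEF, NFIL3, DBP, JUND, IRS2, MAP1LC3B, MAP1LC3A, SQSTM1, INSIG1, SREBF1, HMGCS1, MSMO1, PLIN2, GCLC, GCLM, NQO1 and CFL1. Alternatives were other pseudocounts, filters, scalings, moderation, array weights, a replicate block, a fit of all 9 libraries and leaving out each library. The genes drawn in the figures were picked after their values had been seen.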

Additional observations from a re-analysis of the deposited data

How the results depend on the processing

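The number of genes higher and lower at day 2 moved by over 1.5 times under these settings. A mean of at least 5 TPM left 1073 rises, among fewer tested genes. Median-ratio scaling gave 2085 falls and quantile normalization 2310. Array weights, which let the fit trust libraries unequally, gave 4076 rises and 4567 falls. Leaving out 1 library at a time gave 317 to 3594 rises and 256 to 3547 falls, the highest without day 0 replicate 2 and the lowest without a day 2 library (317, 399 and 325 rises and 256, 434 and 256 falls without day 2 replicates 1, 2 and 3). Without day 0 replicates 1 and 3 the falls numbered 698 and 643. The cause of these moves was not tested. With a replicate block 586 genes were higher and 398 lower. Under the remaining settings the counts stayed within 1.5 times. The CLOCK log2 change did not pass the threshold, and turned from 0.25 to -0.00704 after median-ratio scaling, -0.13 after quantile normalization and -0.073 with array weights, and ranged from -0.062 to 0.42 when 1 library was left out. MT1A was not followed through all settings. No other called gene named in the report changed sign under any setting in which it was tested. Replicate numbers were shared between the days without a stated pairing, and the main fit did not treat same-numbered libraries as pairs. Their deviations from their day means correlated at -0.04, -0.05 and -0.04. With means of 3 libraries, these values cannot show whether same-numbered libraries were paired. TPM keeps no depth, so the precision of low genes could not be judged.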
